A study of Mus musculus with 3 samples.

Results

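The synaptic vesicle release genes are 51 listed genes that encode the machinery by which a nerve terminal docks, primes and fuses its vesicles. A TRα1 binding site (TRBS) was assigned to them when its summit lay inside the gene body, or within 30 kb of the 5′ end of the gene in the GENCODE annotation of GRCm38. This rule gave 182 TRBS of the 23988 in the series, and 46 of the 51 genes had at least 1. The rule used position only and no measured value, but the 51 genes were chosen with earlier results of these data known.

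The TRBS came from ChIP-seq on the striatum of adult male C57BL/6J mice aged 8 weeks, euthyroid and untreated, in which a GS-tagged TRα1 was present in GABAergic neurons only. There were 2 ChIP libraries and 1 input library, all from mice of this genotype. The tagged receptor was limited to 1 cell type through a floxed construct, but the driver line, and whether the libraries came from separate animals, are not given in the sources used here. The data were 1 peak list for the whole series, with no values for single libraries. Replicates could therefore not be compared, no test was made, and none of the intervals below covers the variation between animals. Since the tissue was analysed whole, more cells with a bound site and more receptor per cell cannot be told apart. Of the marker genes, a TRBS was present at 5 of 6 genes that mark striatal projection neurons (Ppp1r1b, Drd1, Drd2, Rgs9 and Bcl11b, but not Adora2a) and at 3 of 3 GABAergic genes (Gad1, Gad2 and Slc32a1). The same count was 1 of 2 for glutamatergic neurons, 0 of 3 for astrocytes, 2 of 3 for oligodendrocytes and 2 of 3 for microglia. Under the same rule 57.7% of all protein-coding genes had a TRBS. The most TRBS at 1 marker were 18 for striatal projection neurons, 8 for GABAergic neurons and 11 for oligodendrocytes. They were 3 for microglia, 1 for glutamatergic neurons and 0 for astrocytes. Binding is not expression, and with so few markers this count does not check the label or measure the purity of the cells.

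Vesicle release rests on SNARE proteins, of which synaptobrevin on the vesicle (Vamp1, Vamp2) pairs with syntaxin (Stx1a) and SNAP-25 (Snap25) on the plasma membrane. Munc13 (Unc13a to Unc13c) and RIM (Rims1 to Rims4) prime vesicles at the active zone. Some synaptotagmins (Syt) sense the incoming calcium, and complexins (Cplx) hold the assembled SNAREs ready. NSF with its adaptors (Napa, Napb) takes the SNAREs apart afterwards. TRα1 is a receptor for thyroid hormone that binds DNA with RXR, classically on DR4, in which AGGTCA stands a second time after a spacer of 4 bases.

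The DR4 element was looked for first. Up to 2 of the 12 bases in the pair of half-sites could mismatch, and both strands of the whole peak were read. A DR4 was found in 33 of the 182 TRBS, or 18.1% (95% Wilson interval 13.2 to 24.4), beside 17.3% of all TRBS of the series. The share at the release genes was thus near the background. None of the 33 had a perfect element. The best match carried 1 mismatch in 7 TRBS and 2 mismatches in 26, which is 21.2 and 78.8% of them, beside 19.2 and 77.6% of all TRBS with a DR4.

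The 7 elements with 1 mismatch are shown here because they are the closest to the consensus, followed by the DR4 of the 4 strongest TRBS that held one. Each is given 5′ to 3′ on the strand of the element, from GRCm38, and capitals mark the half-site bases that match AGGTCA.
Rims1, intron, 9419 bp from the 5′ end at the summit, chr1:22796567-22796596, minus strand: tgtatggAGGTCttctaAGGTCAggagaat
Rims1, intron, 136733 bp from the 5′ end at the summit, chr1:22669269-22669298, minus strand: ttcctggAGtTCAgctaAGGTCAacaggct
Syt1, intron, chr10:108961014-108961043, minus strand: attaaagAGGcCAtctcAGGTCAtgtggaa
Pclo, intron, chr5:14843369-14843398, minus strand: tctttgcAGGTCAgcagAGGTaAttgaagc
Sv2c, intron, chr13:96015784-96015813, plus strand: aagactgAGGTCAgactAGaTCAgaccttg
Sv2c, intron, chr13:95971097-95971126, plus strand: agctgggAGtTCAtctgAGGTCAagcaccg
Stx1a, upstream in Abhd11, chr5:135009831-135009860, plus strand: cgatctgAGGTCAgccaAGGgCActgggag
Syt3, 661 bp from the 5′ end at the summit, chr7:44384443-44384472, minus strand: gagtccaAGaTCtccagAGGTCAcgtagct
Unc13b, upstream at Fam214b, chr4:43046188-43046217, plus strand: tggctgcAGGTCgtctgAGGTCccaccccg
Rims1, intron, 42501 bp from the 5′ end at the summit, chr1:22763445-22763474, plus strand: gttccagAGGTgAcattgGGTCAagtagag
Doc2a, downstream at Hirip3, chr7:126861980-126862009, plus strand: ggcttcgcGGTgAgctgAGGTCAcagagga

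These elements lay mostly close to the point of highest signal, at a median of 44 bp from the summit over the 33 TRBS. Of those shown, 8 lay 7 to 49 bp away, those of Sv2c 102 and 119 bp, and that of Syt3 305 bp. Restricting the search to 100 bp on either side of the summit left 25 TRBS, or 13.7% (9.48 to 19.5), beside 13.1% of all TRBS. Of the 33, 22 lay in introns of the listed gene and 2 within 1 kb of its 5′ end.

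The number of genes was considered next. At least 1 TRBS was found for 46 of the 51 genes, or 90.2% (79.0 to 95.7), beside 57.7% of the 21938 protein-coding genes under the same rule. This background held every annotated protein-coding gene, whether or not it is expressed in these neurons. Genes of like expression were not compared, so the gap cannot be assigned to vesicle release. A TRBS within 1 kb of the 5′ end was found for 23 genes, or 45.1% (32.3 to 58.6), beside 23.2% of protein-coding genes. A TRBS with a DR4 was found for 22 genes, or 43.1% (30.5 to 56.7), beside 17.8%. This count also depends on the number of TRBS per gene, with a median of 3 at the release genes and 1 at all protein-coding genes. Per TRBS the share with a DR4 was 18.1%, beside 17.3%, so the count of genes does not show that DR4 was more frequent in these TRBS. The rule gives long genes more room, and the release genes had a median length of 47.3 kb against 17.4 kb for all protein-coding genes. Per length of sequence searched, the release genes held 2.47 TRBS per 100 kb (2.12 to 2.85, exact Poisson interval for counting error), beside 1.33 for all protein-coding genes.

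The genes were therefore also counted by the length of the window searched. Where the gene body lay within the 30 kb, 13 of 16 release genes had a TRBS, or 81.25%, beside 51.4% of protein-coding genes. In windows of 60 to 100 kb the count was 17 of 18, or 94.4%, beside 61.0%, and in windows of 100 to 200 kb it was 6 of 6, beside 74.4%. Above 200 kb, 10 of 11 release genes had one, or 90.9%, beside 86.7%. The share of release genes was above that of all genes in each of the 4 classes, and the interval of the release genes included the share of all genes in the 2 longest.

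**Figure D1:**
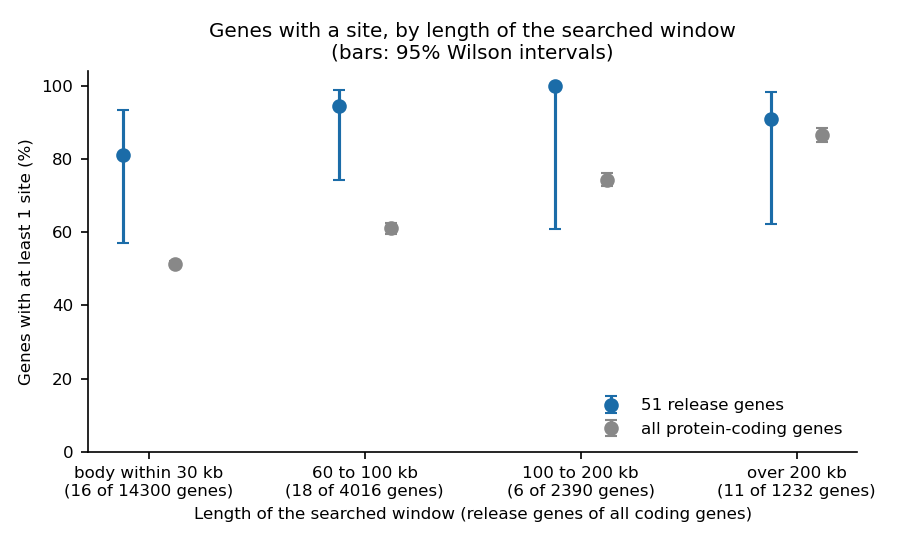
Percentage of genes with at least 1 TRBS (vertical axis) in 4 classes of window length (horizontal axis), for the release genes (blue) and all protein-coding genes (grey), with 95% Wilson intervals. The blue points lie above the grey ones in each class, by least in the windows over 200 kb (90.9 against 86.7%).

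The fold enrichment of these TRBS, the ratio of the ChIP pileup to the local background of MACS, had a median of 7.89 (95% interval of the median 7.44 to 8.83), beside 7.40 for all TRBS. The interval lay just above the median of all TRBS. For the 18964 TRBS assigned to any protein-coding gene by the same rule, the median was 7.44, the lower end of the interval. No test was made. The values ranged from 4.95 to 48.4. The fragment pileup at the summit ran from 14 to 148 with a median of 22, beside 21 for all TRBS, and the median length was 440.5 bp, beside 422 bp. A score of at least 200 was reached by 66 of the 182, or 36.3%, beside 31.4% of all TRBS. The local background was never above 4.13 fragments, with a floor of 1.69 at which 44.0% of the 182 and 42.6% of all TRBS lay.

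Most of these TRBS were inside the genes, a placement that the rule favours. It took summits in the gene body at any distance, but others only within 30 kb of the 5′ end. The shares by placement and distance were not counted over all TRBS, so they are not a trait of these genes. Introns of the listed gene held 110 of the 182, or 60.4%, and sequence upstream held 51, or 28.02%. A further 11 lay beyond the 3′ end of a short gene, 5 in untranslated and 4 in coding exons, and 1 in a noncoding exon. By distance, 24 lay within 1 kb of the 5′ end, 21 at 1 to 5 kb, 73 at 5 to 30 kb and 64 beyond 30 kb. The 24 near the 5′ end had a median fold enrichment of 8.93, and the other 158 a median of 7.81.

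Closeness to a release gene did not always mean closeness to its start. With 1 5′ end taken per gene, the nearest one of a protein-coding gene was that of the listed gene for 117 TRBS. It was that of another gene for 65, or 35.7%. Of these 65, 13 lay within 1 kb of the other gene's 5′ end. Besides those described with their genes below, they lay 401 bp from Pik3r2 (Rab3a), 429 bp from Kptn (Napa), 107 bp from Tmem107 (Vamp2), 151 bp from Jak3 (Unc13a) and 162 bp from Stoml2 (Unc13b), at fold enrichments of 5.10 to 7.91. Farther away, the nearest coding 5′ ends not named with their genes below were those of Gm9758 (Pclo), Dcstamp (Rims2), Atp8b5 (Unc13b), Jmjd4 (Snap47), Borcs6 and Hes7 (Vamp2), Arf2 and Wnt3 (Nsf), 4930451I11Rik (Doc2a), Olfml1 (Syt9), Gm17482 (Syn2), and Timp3 and Fbxo7 (Syn3). Among the 15 TRBS with a fold enrichment above 20, the nearest 5′ end was another gene's for 9. For Doc2a, Snap47, Stx1a, Syn1 and Vamp1, no TRBS was nearest to their own 5′ end, so these 5 genes were counted through TRBS that lay nearer to the 5′ end of another gene. Other transcripts of a listed gene can start nearer than the gene named. The TRBS named with Atp8b5 lay 12288 bp from it and 666 bp from an Unc13b transcript start. For Gm17482 the distance was 12139 bp, and a Syn2 transcript started 488 bp away. Among the release gene TRBS, 7 lay within 1 kb of such a start but not of the 5′ end. These shares were not counted over all TRBS.

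**Figure D2:**
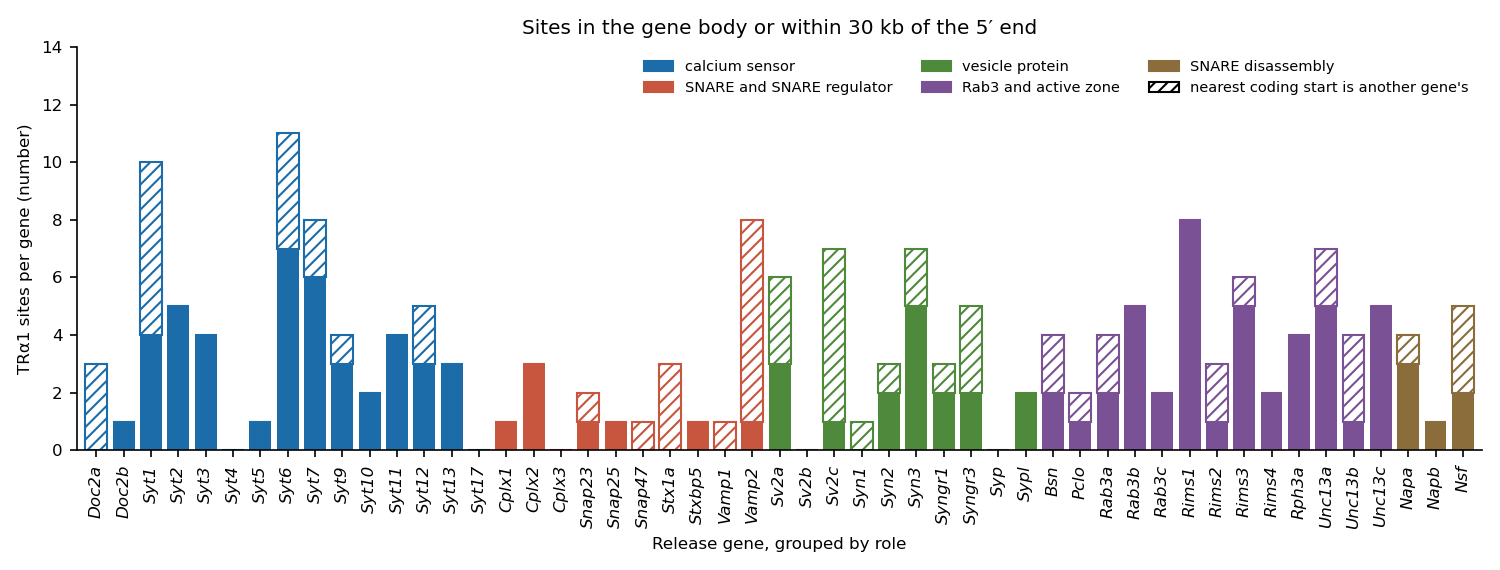
Number of TRBS (vertical axis) for each of the 51 genes (horizontal axis), coloured by role, with the hatched part of a bar for TRBS whose nearest coding 5′ end is that of another gene. Syt6 has the most with 11, the bar of Vamp2 is hatched for 7 of its 8, and 5 genes have no bar.

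The group named calcium sensors held the synaptotagmins, some of which bind calcium and membrane through their C2 domains, and the related Doc2 proteins. The name is a label for the group, and not every member need sense calcium. Of these 15 genes 13 had a TRBS, or 86.7%, beside 57.7% of protein-coding genes, with 61 in all. A DR4 was in 10 of the 61, or 16.4%, near the 17.3% of all TRBS. Their density was 3.44 TRBS per 100 kb searched, beside 1.33, and their median fold enrichment 7.81. Syt3 had the strongest TRBS of all the release genes. It covered chr7:44384013-44385145, with its summit in an untranslated exon 661 bp downstream of the 5′ end of the gene and 105 bp from the start of a Syt3 transcript. This sequence also lies in an intron of 1700008O03Rik. The pileup there was 148 fragments and the fold enrichment 48.4, which exceeded 99.1% of the TRBS in the series. Another 3 TRBS lay 19566 to 24644 bp upstream of Syt3, with fold enrichments of 13.0 to 18.6, of which the outer pair lay in an untranslated exon of Shank1, a scaffold gene of the postsynaptic density.

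Syt6 had the most TRBS of any release gene, 11 in or near a gene of 70.3 kb. Upstream of its 5′ end lay 3, at 3067, 7132 and 23098 bp, with fold enrichments of 17.5, 12.2 and 5.95. The strongest lay deep in the gene, in introns 37676, 40511 and 56014 bp downstream of the 5′ end. Their pileups were 83, 84 and 60 and their fold enrichments 31.2, 28.9 and 22.6. The nearest coding 5′ end to all 3 was that of Atg4a-ps, at 14823 to 33161 bp. A DR4 was present in 1 of the 11, the one 3067 bp upstream. No TRBS lay within 1 kb of the 5′ end of Syt6. Both of the strongest held a match to TGANTCA, the pattern searched here as AP-1, the element of Fos and Jun. N is any base, and the match read TGACTCA at 37676 bp and TGAATCA at 40511 bp. A match need not be an element that Fos and Jun bind. The matches are shown on the plus strand of GRCm38 with the matched letters in capitals.
Syt6, intron, chr3:103612808-103612836: tctgcttcgcaTGACTCAttagctcctcc
Syt6, intron, chr3:103615700-103615728: agcgttttgcaTGAATCAccttatttaat

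Syt1, the fast calcium sensor of many forebrain synapses, held 10 TRBS, all within its 513.3 kb. One lay in an untranslated exon, 61 bp from the 5′ end, and had the lowest fold enrichment of the 182, 4.95 at a pileup of 16. The highest, 27.5 at a pileup of 73, lay 400480 bp into the gene. Of the other 8, 1 had a fold enrichment of 13.1 and 7 lay between 5.39 and 7.81. A DR4 was present in 3 of the 10, none of which exceeded 7.81. The 6 from 251194 bp onwards, the strongest included, had Gm5136 as the nearest coding 5′ end. For the strongest it was 89658 bp away, while another Syt1 transcript started 26462 bp away. Syt2, the close paralogue of Syt1, had 5 TRBS, none within 1 kb of its 5′ end. Its strongest, at a fold enrichment of 15.1, lay 63214 bp downstream of the 5′ end but only 591 bp from the start of another Syt2 transcript.

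Syt7, a slow high-affinity calcium sensor, had 8 TRBS. The 5′ end had a pair of them, 396 bp upstream and 450 bp downstream, with fold enrichments of 5.58 and 10.2. The strongest lay 46951 bp into the gene, at a fold enrichment of 16.7 and with a DR4 4 bp from its summit, and Lrrc10b had the nearest coding 5′ end, at 21432 bp. A second DR4 was in the TRBS at 44367 bp. Syt12 had 5 TRBS, 4 of them upstream, and the one 15614 bp upstream combined a DR4 with a fold enrichment of 16.9, nearest to 2010003K11Rik. The one 5057 bp downstream, at 7.81, held a DR4 too. Syt9, another fast calcium sensor, and Syt11 had 4 each, with highest fold enrichments of 11.9 and 8.79. Syt13 had 3, Syt10 had 2 and Syt5 had 1, none above 7.07. Syt4 and Syt17 had none. Doc2b had 1 TRBS, 116 bp downstream of its 5′ end, with a fold enrichment of 17.5. The TRBS assigned to Doc2a with a fold enrichment of 35.2 lay 14607 bp downstream of the 5′ end of Doc2a and 51 bp from that of Hirip3.

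Of the 10 genes of SNAREs and their regulators, 9 had a TRBS, beside 57.7% of protein-coding genes, and 5 of the 10 had exactly 1. There were 21 in all, or 2.71 per 100 kb searched, beside 1.33. A DR4 was in 3 of the 21, or 14.3%, near the 17.3% of all TRBS. Snap25 had a single TRBS, in an intron 31556 bp from the 5′ end, at 5.18-fold enrichment and a pileup of 14. Snap23 and Snap47, its more widely expressed relatives, had 2 and 1, none above 7.61, and a Snap23 site 21822 bp upstream, in Zfp106, held a DR4. For Stx1a the 3 TRBS lay 10708 to 13685 bp upstream, in or near Abhd11, and the highest fold enrichments were 22.4 and 21.7. Vamp1 had 1 TRBS at a fold enrichment of 5.95, which lay 26 bp from the start of a Vamp1 transcript and 610 bp from the 5′ end of Tapbpl.

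Vamp2, the main synaptobrevin of forebrain terminals, had 8 TRBS around a gene of 3.90 kb. The strongest lay 1288 bp upstream of its 5′ end, at 25.6-fold enrichment and a pileup of 87, and was the one TRBS of the 8 whose nearest coding 5′ end was that of Vamp2. A group of 4 lay 8804 to 13835 bp downstream, in introns of the neighbouring clock gene Per1, with fold enrichments of 6.32 to 12.2. One of these held the only CRE among the 182, a site of CREB, shown on the plus strand with the element in capitals.
Vamp2, in an intron of Per1, chr11:69097191-69097220: tgcctccgcttTGACGTCAcctccctctcc

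Of the complexins, Cplx2 had 3 TRBS, of which the strongest lay in an untranslated exon 122 bp from the 5′ end, with a pileup of 56 at 13.7-fold enrichment, and a DR4 was in the one 28588 bp upstream. Cplx1 had 1, 213 bp upstream, at 7.44, and Cplx3, known from the retina, had none. Stxbp5, which encodes the SNARE inhibitor tomosyn, had 1 TRBS, 515 bp upstream, at a fold enrichment of 10.7.

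**Figure D3:**
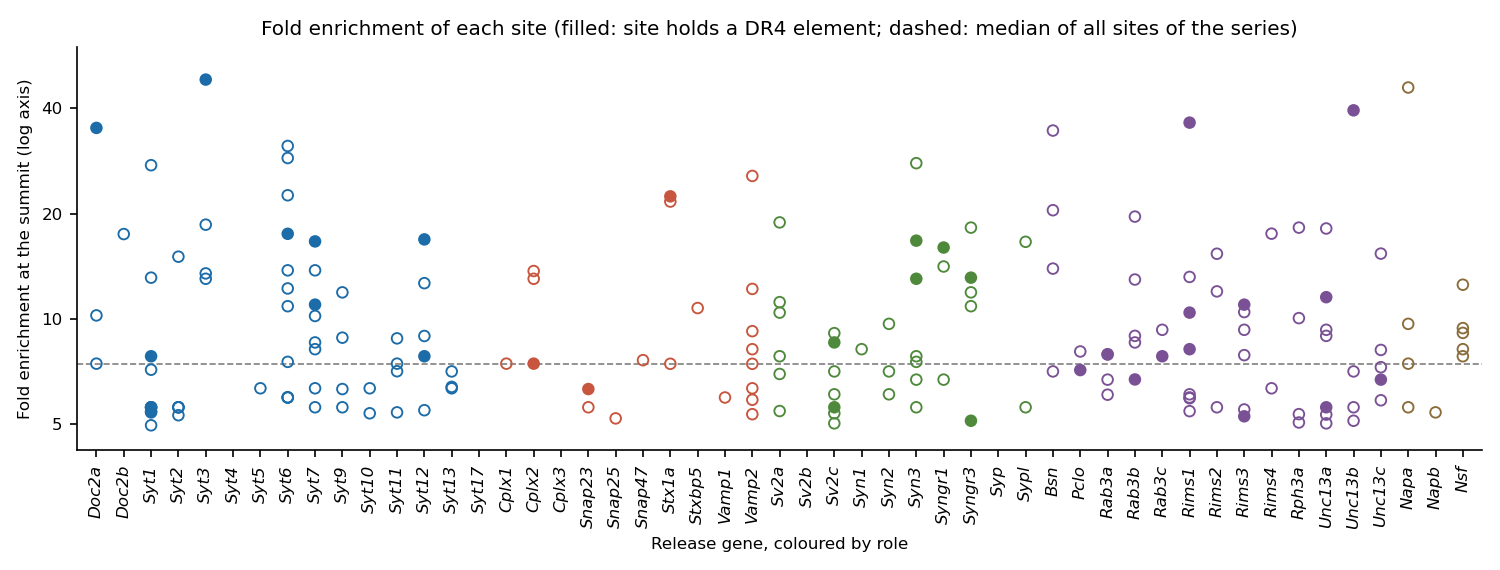
Fold enrichment at the summit of each TRBS (vertical axis, logarithmic) for the 51 genes (horizontal axis), coloured by role, with filled points for TRBS that hold a DR4 and a dashed line at the median of all TRBS, 7.40. The highest points are those of Syt3 at 48.4 and Napa at 45.9, and Snap25 has 1 point at 5.18.

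Among the proteins of the vesicle itself, 8 of 10 genes had a TRBS, or 80.0%, beside 57.7% of protein-coding genes, with 34 in all and a median fold enrichment of 8.00. A DR4 was in 7 of the 34, or 20.6%, near the 17.3% of all TRBS. The synapsins tether vesicles in the reserve pool, and 3 genes encode them. Syn3 had 7 TRBS, the strongest 3480 bp upstream of its 5′ end at 27.9-fold enrichment and a pileup of 74, and a pair with DR4 in introns at 16.7 and 13.0. Syn2 had 3, none above 9.67. Syn1 had 1, at 8.18, which lay 29559 bp upstream and 45 bp from the 5′ end of Elk1.

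The SV2 proteins are vesicle glycoproteins, and SV2C is known for its high level in the striatum and other basal ganglia. Sv2c had 7 TRBS in a gene of 178.0 kb, with fold enrichments of 5.02 to 9.09. Of these, 1 lay 1259 bp from the 5′ end and 6 lay 61077 to 161346 bp downstream. The nearest coding 5′ end to these 6 was that of Gm20075 or Iqgap2, with 1 5′ end taken per gene. Other Sv2c transcripts started nearer to some of them. The one 148539 bp downstream lay 92116 bp from Iqgap2 but 812 bp from a Sv2c transcript start, while the nearest coding Sv2c transcript started 104828 bp away. Sv2a had 6, of which 3 lay in introns 203, 1413 and 9386 bp from the 5′ end, at 10.4, 5.44 and 6.95. The other 3 lay 22565 to 24978 bp upstream, in an untranslated exon of Otud7b and nearest to the 5′ end of Mtmr11, and their fold enrichment reached 18.9. Sv2b had none in a gene of 194.4 kb. Syp, which encodes synaptophysin, the classical marker of vesicles, had none either.

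Syngr1 and Syngr3 encode synaptogyrins, relatives of synaptophysin. Syngr1 had 3 TRBS, with fold enrichments of 14.1 at 223 bp and 15.99 at 1679 bp from its 5′ end, the latter with a DR4 and nearest to the 5′ end of Rpl3, and 6.69 upstream. Syngr3 had 5, of which those at 18.2, 13.1 and 11.9 lay 121, 29 and 24 bp from the 5′ ends of Tbl3, Zfp598 and Gfer. A DR4 was in the one at Zfp598 and in one 553 bp inside Syngr3, at 5.10. Sypl, a relative of synaptophysin outside neurons as well, had 2, with the stronger at 16.6, 23164 bp upstream.

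Of the Rab3 and active zone genes, 13 of 13 had a TRBS, beside 57.7% of protein-coding genes, with 56 in all. A DR4 was in 13 of the 56, or 23.2%, beside 17.3% of all TRBS. The count is small, and whether these shares differ was not tested. Many of these genes are long, and the density was 1.82 TRBS per 100 kb searched, beside 1.33. Rims1 had 8, all in introns. The strongest lay 42501 bp from the 5′ end, at 36.4-fold enrichment, a pileup of 103 and a DR4 33 bp from its summit. A DR4 was present in 3 of the 8. Rims3 had 6, of which 5 lay within 8.22 kb inside the gene at fold enrichments of 5.26 to 10.5. The sixth, 28932 bp upstream in Nfyc, was at 10.98, and it and the one at 5.26 held a DR4. Rims2 had 3 and Rims4 had 2, with highest values of 15.4 and 17.5.

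Munc13 proteins open syntaxin and make vesicles ready for fusion. Unc13a had 7 TRBS, 5 of them in a gene of 47.3 kb. The fold enrichment was 8.93 at 69 bp upstream of its 5′ end, 18.1 at 1136 bp downstream and 9.30 at 3492 bp downstream, the last of which lay 183 bp from the start of another Unc13a transcript. A DR4 was in those 11989 and 33062 bp downstream, at 11.5 and 5.58. The latter had Colgalt1 as the nearest coding 5′ end, at 27697 bp, but another Unc13a transcript started 2702 bp away. The TRBS at the 5′ end held the only match to EGR among the 182, shown with the element in capitals on the plus strand.
Unc13a, upstream of the 5′ end, chr8:71671764-71671792: tgacgctgcgGCGTGGGCGgagccggaga

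Unc13b had 4 TRBS. The one with a fold enrichment of 39.5 and a pileup of 114 lay 12763 bp upstream of Unc13b and 30 bp from the 5′ end of Fam214b, and the other 3 were at 5.10 to 7.07. Unc13c had 5, all between 227485 and 390642 bp from its 5′ end, with a highest fold enrichment of 15.4 and a DR4 in the one at 6.69.

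Bassoon (Bsn) and Piccolo (Pclo) are the giant scaffolds of the active zone. Bsn had 4 TRBS, with fold enrichments of 13.9 at 10932 bp upstream, 20.5 at 2594 bp downstream, 34.6 at 48685 bp downstream and 7.07 in a coding exon 83402 bp downstream. The last pair had Apeh as the nearest coding 5′ end, at 47093 and 12376 bp, but other Bsn transcripts started nearer, at 31286 and 3431 bp. Pclo had 2, of which 1 lay 162 bp upstream of the 5′ end at 8.06. Rab3 is the small GTPase of the vesicle, and rabphilin (Rph3a) binds it. Rab3b had 5 TRBS, all in introns within 17.5 kb, with a highest fold enrichment of 19.6. Rab3a had 4, none above 7.91, and Rab3c had 2, at 7.81 and 9.30. Each of the 3 had 1 TRBS with a DR4. Rph3a had 4, the strongest 6417 bp upstream at 18.2 and another in an untranslated exon at 10.04.

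**Figure D4:**
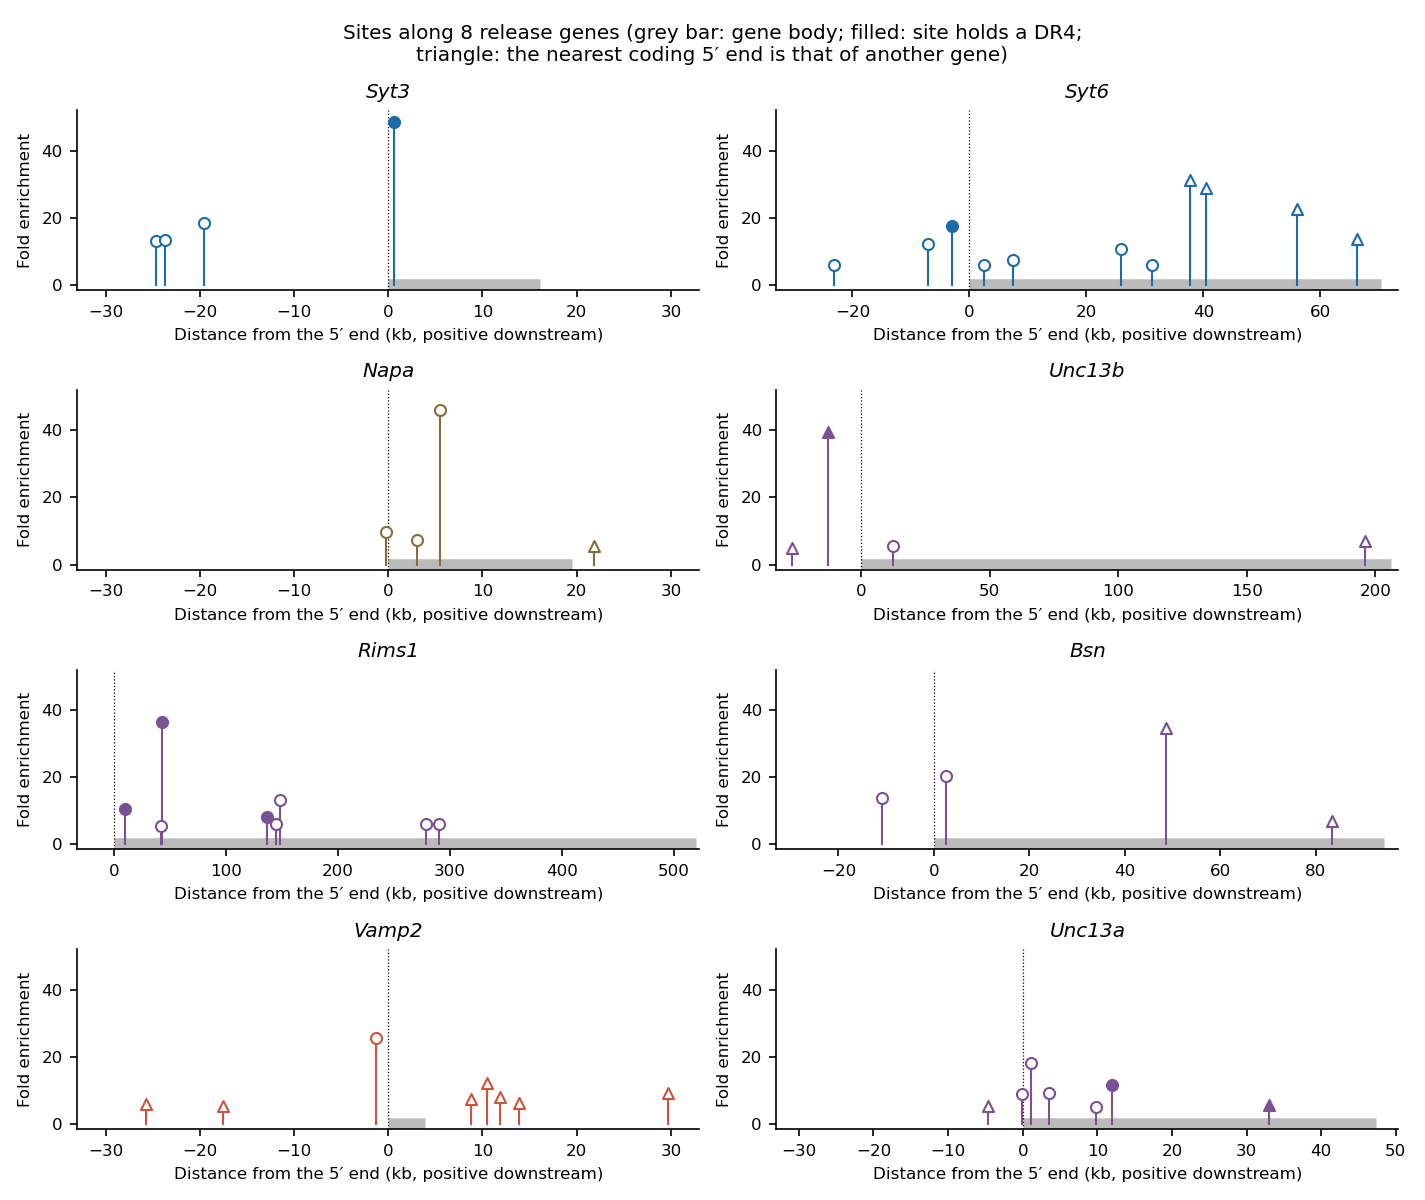
Position of each TRBS along 8 release genes, as distance from the 5′ end (horizontal axis, kb) against fold enrichment (vertical axis), with the gene body as a grey bar, filled symbols for TRBS with a DR4 and triangles where another gene's coding 5′ end is nearest. The strongest TRBS lies 661 bp downstream of the 5′ end in Syt3, but 37676 bp downstream in Syt6 and 12763 bp upstream in Unc13b.

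Of the disassembly genes, 3 of 3 had a TRBS, beside 57.7% of protein-coding genes, with 10 in all. None of these 10 held a DR4, beside 17.3% of all TRBS, and both counts are small. Napa, which encodes the adaptor αSNAP, had 4, and its strongest covered chr7:16103445-16104665 in an intron 5537 bp from the 5′ end. The pileup was 143 and the fold enrichment 45.9, above 98.9% of all TRBS. The TRBS at the 5′ end of Napa, 256 bp upstream, was at 9.67. Napb, the neuronal paralogue of Napa, had 1, at 5.39. Nsf, the ATPase, had 5, with fold enrichments of 7.81 to 12.5, and one of 9.40 lay 404 bp from its 5′ end. The summit of Napa, and the strongest intronic summits of Bsn and Syt1, are shown on the plus strand because they were the 3 strongest intronic TRBS, outside any other coding gene, without a DR4 or a match to the other motifs. No complete AGGTCA was present in these 81 bases on either strand.
Napa, intron, chr7:16103955-16104035: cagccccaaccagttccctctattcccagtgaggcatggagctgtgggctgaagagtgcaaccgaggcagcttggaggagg
Bsn, intron, chr9:108141659-108141739: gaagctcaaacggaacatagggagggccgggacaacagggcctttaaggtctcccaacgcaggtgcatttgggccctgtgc
Syt1, intron, chr10:108610462-108610542: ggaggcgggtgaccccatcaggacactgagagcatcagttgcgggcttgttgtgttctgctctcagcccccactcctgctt

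The remaining motifs were searched without mismatches within 100 bp of the summit, on both strands. AP-1 (TGANTCA) was found at 25 of the 182 summits, or 13.7% (9.48 to 19.5), beside 11.5% of all summits. The pattern searched as MEF2 (CTANNNNTAG) was found at 11, or 6.04% (3.41 to 10.5), beside 3.21%. These lay at 11 different genes, among them Syt1, Syt2, Syt6, Syt7 and Syt10. N in the AP-1 and MEF2 patterns is any base, so a match need not be an element that these factors bind. The E-box CACGTG was found at 5, or 2.75% (1.18 to 6.27), beside 4.68%. CRE (TGACGTCA), EGR (GCGTGGGCG) and NBRE (AAAGGTCA), the element of Nr4a receptors, which contains the half-site of DR4, were found at 1 summit each, or 0.549%, beside 0.542, 0.379 and 1.15%. CRE shares the letters TGAC with the reverse strand of the half-site. The NBRE was in Rims1. NRF1 (GCGCATGCG) was found at none, where counting error allows up to 2.07%, beside 0.417%. The intervals of the release genes included the share of all summits for each motif but MEF2, whose interval lay just above it. With 8 motifs searched and no test made, this is a description only.

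**Figure D5:**
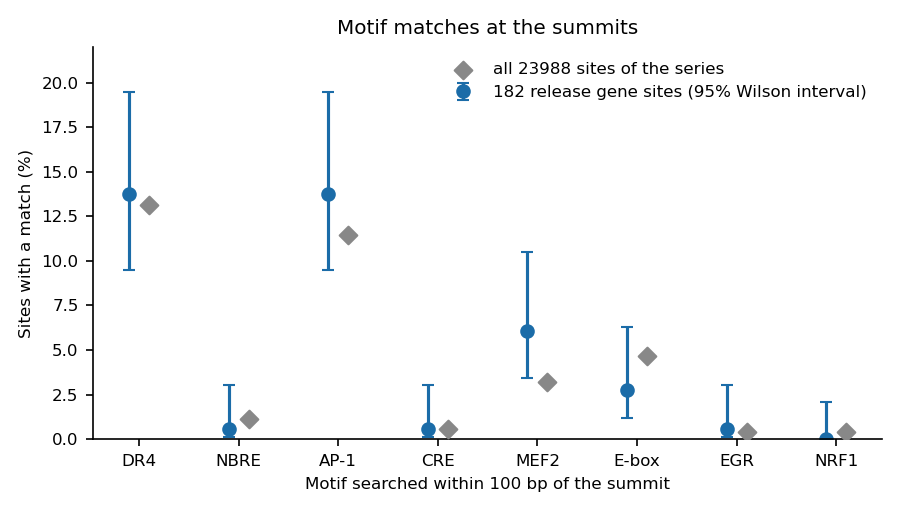
Percentage of summits with a match (vertical axis) to each of 8 motifs (horizontal axis), for the 182 TRBS of the release genes (blue, 95% Wilson intervals) and all 23988 TRBS (grey diamonds). DR4 and AP-1 are both at 13.7% at the release genes, and the grey diamond lies within the blue interval for each motif except MEF2.

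For the 5 genes without a TRBS, the closest summit lay outside the rule by varying amounts. It was 39.3 kb from the 5′ end of Cplx3, 51.96 kb from that of Syt17, 92.5 kb from that of Syp, 130.0 kb from that of Syt4 and 289.9 kb from that of Sv2b. At the edge of the rule, 4 TRBS outside the gene bodies lay between 28 and 30 kb from a 5′ end, with fold enrichments of 7.44 to 10.98. Another 16 lay between 30 and 40 kb and were not counted, with fold enrichments of 4.81 to 43.4, the highest of them 33204 bp upstream of Unc13b.

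A second list held 44 other genes of vesicle release, of which 43 were found in the annotation. A TRBS was present for 36 of them, or 83.7%, beside 57.7% of protein-coding genes, with 106 in all. A TRBS with a DR4 was present for 10, or 23.3%, beside 17.8%. The highest fold enrichment, 68.4, was that of a TRBS assigned to Vamp3, which lay 13073 bp downstream of the 5′ end and outside the gene. Rimbp2, a partner of RIM, had 10 TRBS, with a highest value of 46.1 in an intron and 4 with a DR4. Snap91 had its strongest TRBS 56 bp upstream of its 5′ end, at 43.0. The 7 genes without a TRBS were Cadps2, Cplx4, Napg, Rab27a, Snap29, Syt15 and Syt8.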

How the data were processed

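Alignment to GRCm38 (mm10) and peak calling with MACS were done by the authors on Galaxy, who dropped peaks scoring under 60. The submitters' processing notes name Bowtie2 2.3.2.2 and MACS2 2.1.1.20160309.0. Whether the 2 ChIP libraries were pooled, and how duplicates were treated, is not given in the sources used here. The deposited list gave for each peak the pileup (signal, the fragment coverage at the summit), the fold enrichment (a ratio to the local background), the −log10 of the q value, and a score, which are the authors' values. The depth of the libraries was not analysed here. Fewer fragments make a value less precise, and TRBS near the lowest pileup of 14 rest on few.

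TRBS were assigned by summit with GENCODE vM21 (21938 protein-coding genes, 5′ end of the gene), and no position in the list exceeded the GRCm38.p6 sequence. The local background was recovered from the fold enrichment, since MACS adds 1 to pileup and background before dividing. Shares of all TRBS or all protein-coding genes were obtained by the same code. Wilson and Poisson intervals cover counting error only, and TRBS of 1 gene are not independent. The 51 genes, the second list, the motifs and the roles were chosen with earlier results of these data known. The genes described in depth were the 10 with the strongest TRBS, the 5 with the most, those with a DR4 and those without a TRBS, and the rest are given in brief. Of the second list, genes among the 5 with the highest fold enrichment are named, and 1 TRBS among these is not reported here. The software was pysam 0.24.0, pandas 2.3.3, scipy 1.17.1, numpy 2.4.6 and matplotlib 3.10.9 under Python 3.11.15, and the assignment and motif search were tested on simulated data.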

Additional observations from a re-analysis of the deposited data

How the results depend on the processing

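The alternatives gave 34 values, of which 26 stayed within 1.5 times the reported count or within the interval of the reported value. A score of at least 200 instead of 60 left 66 TRBS at 30 release genes, or 58.8% of the 51 beside 30.6% of protein-coding genes, with 0.894 TRBS per 100 kb beside 0.427 and a median fold enrichment of 14.02 beside 14.5 for all TRBS of that score. The median was thus above that of all TRBS at the authors' threshold and below it at 200. Without the gene body, 118 TRBS remained at 41 genes, or 80.4% beside 53.3% of protein-coding genes, with 3.86 per 100 kb beside 1.54. Allowing 1 mismatch put a DR4 in 3.85% of the TRBS, and allowing 3 put one in 54.9%, beside 3.86 and 52.9% of all TRBS. Without the gene body the share was 14.4%, beside 17.3% of all TRBS. A distance of 10 kb, the peak midpoint, any overlap and every transcript start gave 42 to 46 genes, or 82.35 to 90.2%, beside 44.7 to 59.5% of protein-coding genes. With 1 list for the series, no library could be left out. No paired analysis was possible because the results come from no test and the list has no values for single libraries.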

Other observations

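The half-sites of the DR4 elements were compared, since TR and RXR are known to take different positions on them. In the 33 TRBS of the release genes, the 3′ half-site alone matched AGGTCA in 12, or 36.4% (95% Wilson interval 22.2 to 53.4), and the 5′ half-site alone in 5, or 15.2% (6.65 to 30.9). Over all 4138 TRBS with a DR4 the shares were 23.9 and 23.3%. Both intervals of the release genes included the share over all TRBS, and no test was made.

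Across the 51 genes, the number of TRBS and the length of the searched window had a Spearman's rho of 0.263, beside 0.237 over the 21938 protein-coding genes. Genes are not independent replicates and neighbouring windows share TRBS, so these values are descriptions. TRBS with a DR4 had a median fold enrichment of 8.55 at the release genes (n = 33), against 7.81 for those without (n = 149), beside 8.18 and 7.08 over all TRBS.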
